A study of Rattus norvegicus with 16 samples.

Results

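Messenger RNA of the hypothalamus was compared with that of the hippocampus in untreated male Sprague Dawley rats. The comparison rests on 8 of the 16 samples of the labels: 4 control hypothalamus samples and 4 control hippocampus samples, which received no treatment. The other samples came from rats given fructose for 6 weeks, in both tissues, and were not used. The labels give no age and leave unsaid if each sample of a tissue is its own rat and if a rat gave both tissues. The p-values therefore measure only the spread between these samples. Each value is an FPKM, a number of sequenced fragments scaled to transcript length and to library size. A gene entered the comparison when its symbol had exactly 1 locus in the table of each region and its mean was at least 1 FPKM in at least one region, which left 9011 of the 15892 symbols that both tables hold. Of these, 8215 reached a mean of 1 FPKM in both regions, 549 in the hypothalamus only and 247 in the hippocampus only.

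The hypothalamus lies at the base of the forebrain and governs feeding, water balance, stress, reproduction, sleep and body temperature. Many of its neurons make peptides, which are cut from larger precursors and released either within the brain or, from axon endings in the median eminence and the posterior pituitary, into blood. The hippocampus is a folded sheet of cortex built mainly of excitatory pyramidal and granule cells that use glutamate, and it is known for its part in memory and for synapses that change with activity. The regions arise from different parts of the embryonic forebrain, and their neurons keep different sets of transcription factors in adult life.

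Throughout, a log2 difference is hypothalamus minus hippocampus on quantile-normalized log2(FPKM + 1) values, so a positive value is a higher level in the hypothalamus, and it understates the change of genes with low FPKM. It is given with its standard error (SE) for 4 against 4 libraries. A gene was called when its limma p-value, adjusted over all 9011 symbols by the Benjamini-Hochberg method, was under 0.05. Values by library are deposited FPKM in the order of replicates 1 to 4. In pieces of whole tissue, fewer cells of a type and less RNA per cell cannot be told apart.

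The sum of FPKM over all loci was 444713 to 492778 in the hypothalamus libraries and 356671 to 395746 in those of the hippocampus, and the read depth is unknown because the files hold no counts. Correlations of the 9011 normalized values were 0.789 to 0.849 between libraries of different regions and 0.949 to 0.988 within a region, where all pairs share their tissue and the range of gene levels. The replicate 1 libraries stood apart: their correlations with the others of their region were 0.949 to 0.965 in hypothalamus and 0.949 to 0.968 in hippocampus, against 0.981 to 0.982 among hypothalamus replicates 2 to 4. Hippocampus replicate 4 had values of 0.952 to 0.955 with replicates 2 and 3.

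Each region's values come from a table of its own, with its own locus numbers, so region and table cannot be told apart, and genes that every cell needs show how far values can lie apart between these tables. Gapdh, an enzyme of glycolysis, was 420.0, 691, 622 and 603 FPKM in hypothalamus and 5.17, 6.59, 6.32 and 7.14 in hippocampus, a log2 difference of 5.87 ± 0.14 (limma adjusted p = 4.36e-09). The protein of the large ribosomal subunit encoded by Rpl29 had 616, 596, 516 and 659 FPKM in hypothalamus against 53.6, 15.7, 25.4 and 27.6 in hippocampus. In the other direction Rps24, of the small subunit, had 11.4, 5, 8.37 and 5.28 FPKM in hypothalamus and 239, 189, 159 and 173 in hippocampus. Rps13, another gene of the small subunit, was listed at 0 in all 4 hypothalamus libraries and at 6.99, 9.03, 9.39 and 10.5 FPKM in hippocampus, while Rps14 was listed at 0 in all 4 hippocampus libraries and at 1.34, 1.59, 1.56 and 1.17 in hypothalamus. A gene listed at 0 in every library of a region is therefore given as listed, without a fold. Where only some libraries are at 0, as for Oxt, Ghrh, Rax and Cckar in hippocampus, the size of the log2 difference depends on the 1 FPKM added before the logarithm. The cytosolic ribosomal proteins, a family chosen after these values were seen, had 56 tested genes with a median absolute log2 difference of 1.03, against 0.53 for all symbols tested. The 58 tested subunits of oxidative phosphorylation had 0.93 and the 34 tested subunits of the proteasome 0.51. Of 13 tested genes often used as references, Gapdh among them, 6 were called higher and 5 lower, beside 27.7% and 29.3% of all symbols. What sets these gaps was not tested, and each single-gene difference below of a size that such genes also show has this limit.

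Of the 9011 symbols, 2499 were called higher in hypothalamus (27.7%) and 2640 lower (29.3%). A called difference of at least 2-fold was found for 1043 higher (11.6%) and 1029 lower (11.4%). On the normalized scale, the 4 values of one region lay wholly above the 4 of the other for 2150 symbols higher in hypothalamus (23.9%) and 2383 lower (26.4%). In either direction, 57% of the symbols were called, 23% with at least a 2-fold difference, and 50.3% did not overlap. The balance depends on how the tables are brought to a common scale: with FPKM as deposited, 3542 were higher and 1770 lower, so that the share of calls in the higher direction was 66.68% in place of 48.63%, and the median log2 difference of all symbols was 0.23 in place of -0.02. Scaling to equal FPKM sums tilted it the other way, with 2158 higher and 3110 lower (40.96% of calls higher) and a median of -0.12. No symbol called in one direction was called in the other under any alternative that was run. Without both replicate 1 libraries, 2670 were higher and 2935 lower.

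**Figure D1:**
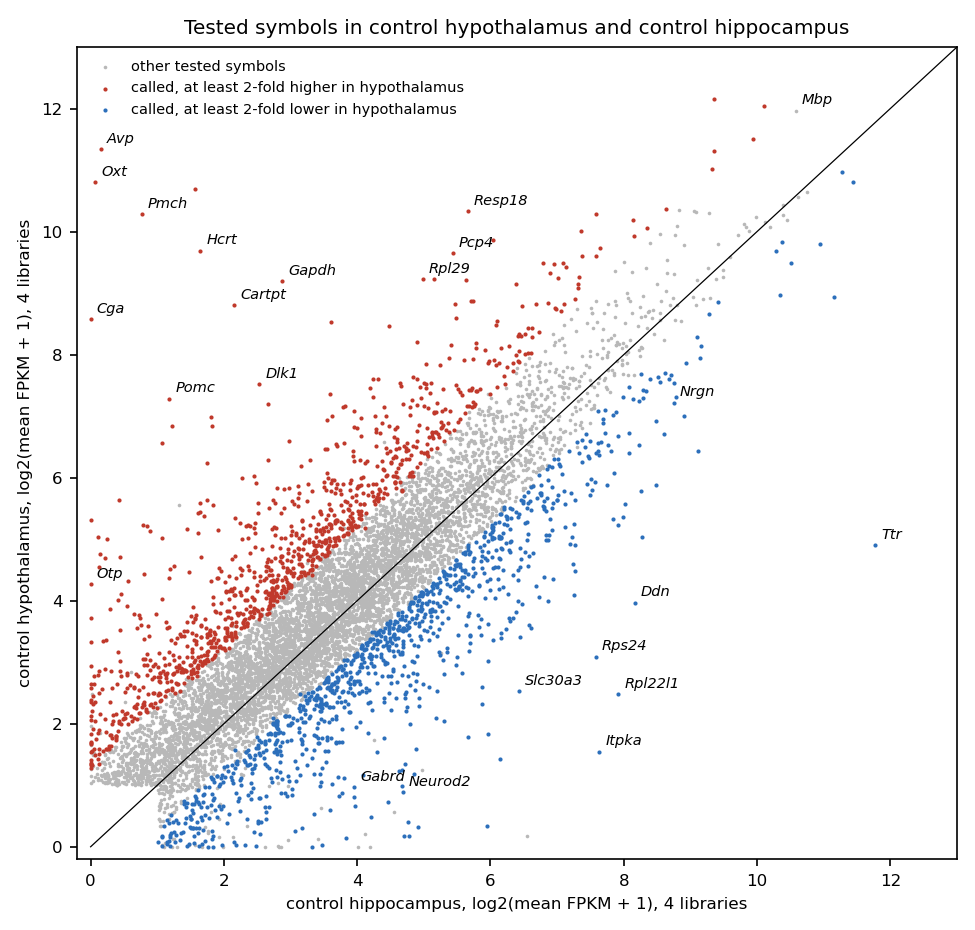
Mean level of the 9011 tested symbols in control hippocampus (horizontal axis) and control hypothalamus (vertical axis), as log2(mean FPKM + 1) of 4 libraries each. Red points are called and at least 2-fold higher in hypothalamus (1043), blue points called and at least 2-fold lower (1029), grey points the rest. Peptide genes such as Avp, Oxt and Pmch lie at the upper left, Ttr and Itpka at the lower right, and Gapdh and Rps24, genes that every cell uses, lie as far from the diagonal as many regional genes.

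Genes of secreted neuropeptides included the widest gaps in the comparison. Of 37 genes on the list, 29 were tested, and 23 of them were higher in hypothalamus, all by at least 2-fold and all with no overlap between the regions, while 5 were lower and 1, Sst, was not called. The median log2 difference of the list was 2.64, beside -0.02 for all symbols tested. Among all symbols 27.7% were called higher, 11.6% by at least 2-fold, and 29.3% lower, and 23.9% lay higher without overlap. Of the 29, 12 passed the limit of 1 FPKM through the hypothalamus alone, which fixes their direction, and 1 through the hippocampus alone. Of the 16 members at the limit in both regions 11 were called higher and 4 lower. Among all 9011 symbols the 3 with the largest positive difference were Avp, Oxt and Pmch.

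The stretches before the starts of 7 of these genes are shown because the genes share a wide gap and a short promoter motif. They are the 100 bases before the RefSeq start in build GRCr8, 5′ to 3′ on the gene's strand, and capitals mark TATAA or ATAAA, or both where they overlap as TATAAA, within the last 50 bases.
Avp (chr3:138248523-138248622, minus strand): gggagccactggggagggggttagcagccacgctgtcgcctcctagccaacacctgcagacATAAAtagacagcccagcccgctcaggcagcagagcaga
Oxt (chr3:138235654-138235753, plus strand): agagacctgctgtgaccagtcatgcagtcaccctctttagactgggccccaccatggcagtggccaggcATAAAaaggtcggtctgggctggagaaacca
Hcrt (chr10:86191525-86191624, minus strand): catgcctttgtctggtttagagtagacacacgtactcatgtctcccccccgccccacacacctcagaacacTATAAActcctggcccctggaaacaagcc
Pomc (chr6:32659253-32659352, plus strand): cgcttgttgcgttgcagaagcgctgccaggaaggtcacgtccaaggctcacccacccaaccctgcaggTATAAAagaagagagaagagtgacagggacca
Cartpt (chr2:32991236-32991335, minus strand): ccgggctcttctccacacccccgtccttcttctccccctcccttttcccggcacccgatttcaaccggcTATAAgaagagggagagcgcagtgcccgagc
Gal (chr1:210084573-210084672, minus strand): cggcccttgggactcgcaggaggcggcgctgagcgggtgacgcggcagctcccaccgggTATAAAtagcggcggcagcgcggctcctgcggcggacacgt
Npvf (chr4:81047046-81047145, minus strand): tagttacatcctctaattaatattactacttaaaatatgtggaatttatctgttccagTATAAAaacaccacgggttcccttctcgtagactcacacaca
In the 7 shown the capitals begin at positions -42 to -29 from the start. The motif was searched on the gene's strand only, and 14 of the 22 tested neuropeptide genes with a promoter in the RefSeq table held it (63.6%), against 297 of 6386 tested symbols (4.65%). The match of Trh, which is counted among the 14 and not shown, begins at position -5, next to the start. It was also in 5 of 9 reference genes (55.6%). Of the hypothalamic transcription factors below 2 of 18 held it, and of symbols called and at least 2-fold higher in hypothalamus, with no overlap, 61 of 687 (8.88%), against 39 of 697 for those lower (5.6%). Agrp and Ghrh had no match in this window, and a match is a description of letters, not of a working site. The table has no entry for Pmch.

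The hormones of the posterior pituitary came first. Avp, which encodes vasopressin, the hormone of water retention, had 3191, 1698, 1692 and 3765 FPKM in the hypothalamus libraries and 0.15, 0.305, 0 and 0 in those of hippocampus (log2 difference 10.68 ± 0.22, limma adjusted p = 2.01e-09). Oxt, which encodes oxytocin, the hormone of milk ejection and labor, had 2366, 789, 1557 and 2409.7 FPKM in hypothalamus and 0.176, 0, 0 and 0 in hippocampus (log2 difference 10.22 ± 0.32, limma adjusted p = 2.76e-08). Both genes were at or near 0 in every hippocampus library and high in every hypothalamus library, with replicate 2 the lowest of its region for Oxt.

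The peptides of the lateral hypothalamus, which act on arousal and feeding, were next. Pmch, the precursor of melanin-concentrating hormone, had 2001, 1093, 974 and 919 FPKM in hypothalamus and 0.19, 0.374, 1.11 and 1.12 in hippocampus (log2 difference 8.96 ± 0.29, limma adjusted p = 2.76e-08). Hcrt, the precursor of the orexins, which keep animals awake, had 1053, 962, 446 and 840.2 FPKM in hypothalamus and 1.49, 1.2, 4.73 and 1.09 in hippocampus (log2 difference 7.66 ± 0.35, limma adjusted p = 2.38e-07). Every hypothalamus value of these genes was far above the highest hippocampus value, and hypothalamus replicate 1 was the highest for both.

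Of the feeding peptides of the arcuate nucleus, Pomc, Cartpt and Agrp were called higher in hypothalamus. Pomc, whose products include the appetite-lowering peptide alpha-MSH, had 179, 57.3, 219.9 and 163 FPKM in hypothalamus and 3.06, 0.685, 0.84 and 0.493 in hippocampus (log2 difference 5.70 ± 0.42, limma adjusted p = 3.29e-06). Cartpt, which encodes a peptide made in part by the same neurons, had 630.4, 296, 463 and 394 FPKM against 1.57, 1.52, 7.39 and 3.36 (log2 difference 6.40 ± 0.37, limma adjusted p = 9.24e-07). Agrp, which encodes an antagonist at the melanocortin receptors and drives feeding, had 25.2, 9.94, 28.6 and 12.2 FPKM against 0.255, 0.712, 0.542 and 0.383 (log2 difference 3.37 ± 0.31, limma adjusted p = 1.45e-05). For Pomc, hypothalamus replicate 2 was the lowest of its region, and it was the lowest for Agrp and Cartpt too. Npy, the partner of Agrp in the same cells, has 2 loci in each table and was listed at 0 in all 8 libraries at both, so no level can be given for it. The gene of somatostatin, Sst, an inhibitory peptide of hypothalamic cells and of hippocampal interneurons, had 421, 336, 395 and 415 FPKM in hypothalamus and 216, 258, 231 and 227 in hippocampus and was not called (log2 difference 0.22 ± 0.13, limma adjusted p = 0.18). It was called higher with FPKM as deposited (log2 difference 0.74, limma adjusted p = 0.00068) and with median centring (0.56 and 0.003). The same held with equal FPKM sums (0.34 and 0.0349) and with loci summed (0.49 and 0.0102). In 20 of 24 alternatives Sst was not called.

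The genes of 4 releasing hormones, which reach the anterior pituitary through the portal blood, were called higher in hypothalamus: Trh, Ghrh, Crh and Gnrh1. Trh, of the thyroid axis, had 81.6, 87.7, 97.5 and 107 FPKM in hypothalamus and 1.01, 0.853, 1.6 and 0.945 in hippocampus (log2 difference 5.17 ± 0.15, limma adjusted p = 1.55e-08). Ghrh, of the growth hormone axis, had 11.5, 27, 52.2 and 13.9 FPKM against 0, 0, 0.327 and 0.0691 (log2 difference 4.22 ± 0.41). Crh, of the stress axis, had 8.07, 6.5, 8.2 and 8.21 FPKM against 0.786, 0.856, 0.611 and 0.926 (log2 difference 2.00 ± 0.13, limma adjusted p = 1.49e-06). The 4 hypothalamus values of Crh and of Trh lay close together, while those of Ghrh spread more. Gnrh1, of the reproductive axis, had 8.33, 5.02, 14.7 and 16.6 FPKM against 0.386, 0, 1.96 and 0.394 (log2 difference 2.65 ± 0.41). Kiss1, whose peptide excites the neurons that make Gnrh1, had 5.14, 4.51, 4.24 and 2.45 FPKM in hypothalamus and was listed at 0 in all hippocampus libraries. Npvf, whose peptides act on the same axis, had 15.8, 29.6, 55.8 and 53.7 FPKM in hypothalamus and was likewise listed at 0 in hippocampus (limma adjusted p = 2.11e-06).

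Peptides that many brain regions make were called on both sides. Gal, the gene of galanin, had 97.4, 111, 144 and 102 FPKM in hypothalamus and 1.54, 2.67, 2.74 and 3.19 in hippocampus (log2 difference 4.71 ± 0.18). Penk, the precursor of enkephalin opioids, had 177, 224, 190.4 and 201 FPKM against 25.3, 23.1, 25.7 and 35.9 (log2 difference 2.49 ± 0.15, limma adjusted p = 1.37e-06). Vgf, a granin-like precursor, had 82.1, 133, 144 and 208 FPKM against 30.4, 17, 18.4 and 14.9 (log2 difference 2.43 ± 0.28). The 5 peptide genes called lower were Cck, Vip, Grp, Prok2 and Nmb. Cck, the gene of cholecystokinin, which hippocampal basket cells make, had 72.8, 138, 49.3 and 74 FPKM in hypothalamus and 457, 234, 205 and 178 in hippocampus (log2 difference -2.05 ± 0.35, limma adjusted p = 0.000679). Vip, made by another group of interneurons, had 3.85, 4.42, 1.49 and 3.67 FPKM against 10.4, 9.53, 7.66 and 7.41 (log2 difference -1.46 ± 0.25, limma adjusted p = 0.000775). The groups did not overlap for Cck, Vip or Grp, while the call of Nmb was lost in 13 of 24 alternatives and that of Prok2 in 7 of 21.

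**Figure D2:**
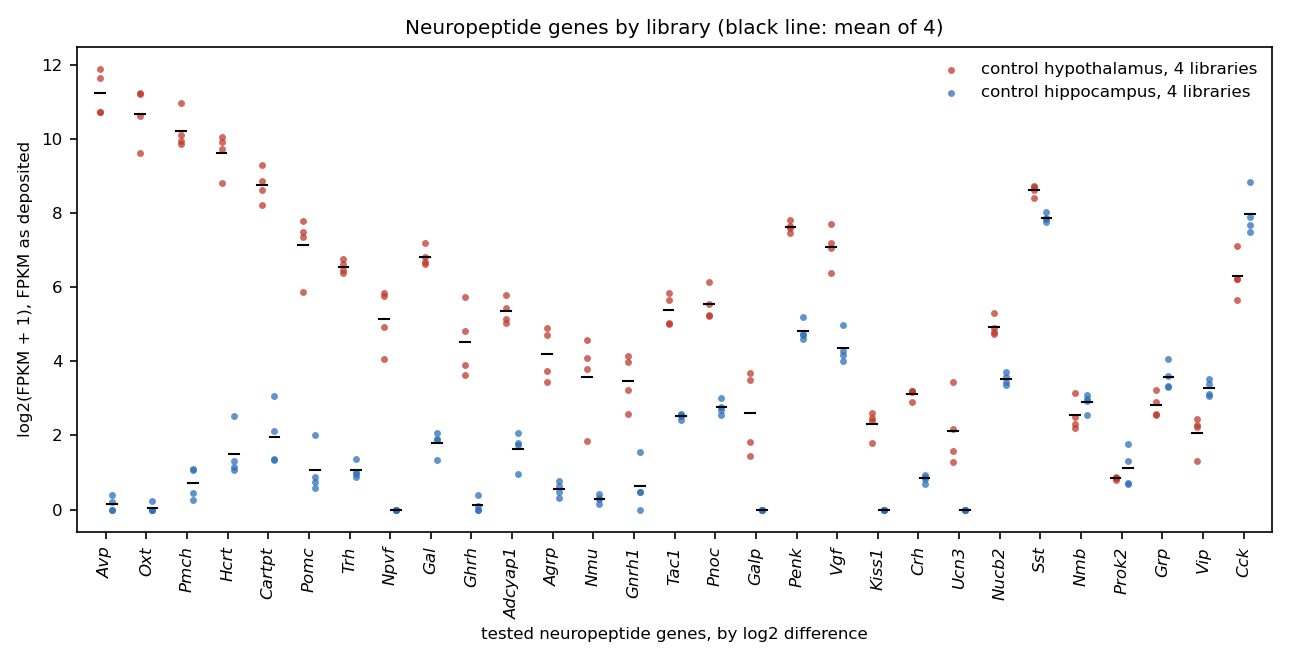
Level of the 29 tested neuropeptide genes in each control library, as log2(FPKM + 1) of the deposited values, ordered by log2 difference, with hypothalamus in red and hippocampus in blue and a black line at the mean of 4 libraries. The regions separate fully for the 23 genes called higher in hypothalamus, and Cck, at the right end, is higher in hippocampus.

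Transcription factors that pattern the hypothalamus and mark its cell groups were compared next. Of 45 genes listed, 29 were tested. In hypothalamus 24 were called higher, 21 of them by at least 2-fold, and 2 lower, beside 27.7% and 29.3% of all symbols. The median log2 difference was 1.31. However, 18 of the 29 passed the limit of 1 FPKM through the hypothalamus alone, where the limit itself makes their mean the higher one, so these counts and the median only describe the list. Of the 11 members at or above the limit in both regions 7 were called higher and 2 lower. Nkx2-1, which specifies ventral hypothalamus, had 11.8, 15.9, 17.4 and 15.2 FPKM in hypothalamus and 0.31, 0.336, 0.457 and 0.212 in hippocampus (log2 difference 3.30 ± 0.17, limma adjusted p = 4.21e-07). Otp, needed for neurons of the paraventricular and supraoptic nuclei, had 16.1, 14.9, 18.8 and 23.5 FPKM in hypothalamus and was listed at 0 in all hippocampus libraries (limma adjusted p = 5.41e-08). Sim1, which acts with Otp in the same nuclei, was low, at 2.05, 1.64, 1.29 and 1.17 FPKM in hypothalamus and 0.0107, 0.012, 0 and 0.00435 in hippocampus (log2 difference 1.08 ± 0.16, limma adjusted p = 0.00028). Every library labelled hypothalamus held Nkx2-1, Otp and Sim1 at levels above every library labelled hippocampus. These genes are among the 18 that passed the limit through the hypothalamus alone, so their separation only describes them.

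Other members mark particular parts of the hypothalamus. Rax, of early hypothalamus and of tanycytes, the cells that line the floor of the third ventricle, had 4, 2.43, 10.2 and 7.12 FPKM in hypothalamus and 0, 0, 0 and 0.328 in hippocampus (log2 difference 2.41 ± 0.33, limma adjusted p = 0.000191). Hmx3 had 4.89, 5.15, 5.4 and 4.55 FPKM in hypothalamus and was listed at 0 in hippocampus. The values of Rax spread several-fold within the hypothalamus libraries, those of Hmx3 little. Isl1, a factor of arcuate neurons, had 9.81, 8.75, 12.8 and 11.5 FPKM against 0.697, 0.122, 3.71 and 0.362, where hippocampus replicate 3 was the highest of its region (log2 difference 2.39 ± 0.38, limma adjusted p = 0.000438). Six3, of the anterior forebrain, had 9.03, 8.23, 13.4 and 15.4 FPKM against 0.825, 0.94, 2.16 and 0.79 (log2 difference 2.27 ± 0.25, limma adjusted p = 4.66e-05). Lhx9, a LIM factor, was called lower in hypothalamus, with 2.08, 0.268, 0.623 and 1.14 FPKM in hypothalamus and 2.55, 3.17, 3.79 and 1.91 in hippocampus (log2 difference -1.26 ± 0.27, limma adjusted p = 0.00269). The deposited values overlapped, and the groups were apart only after normalization.

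Factors of the telencephalon, the part of the forebrain that forms the hippocampus, mostly showed the opposite direction. Egr3 and Nr4a3 are on this list and also among the immediate early genes below. Of 41 genes listed, 23 were tested. In hypothalamus 18 were called lower, 13 of them by at least 2-fold, and 1 higher, beside 29.3% and 27.7% of all symbols. The median log2 difference was -1.30. However, 2 of the 23 passed the limit of 1 FPKM through the hippocampus alone, Neurod2 among them, which fixes their direction. Another 1 passed it through the hypothalamus alone. At the limit in both regions were 20 members, of which 16 were called lower and 1 higher. Neurod2, of maturing excitatory neurons, had 1.78, 1.15, 0.122 and 0.362 FPKM in hypothalamus and 33.1, 27, 23.1 and 15.6 in hippocampus (log2 difference -4.07 ± 0.30, limma adjusted p = 3.43e-06). Bcl11b, also known as Ctip2, had 1.79, 1.31, 0.965 and 1.05 FPKM against 39.1, 25.2, 24.5 and 22.3 (log2 difference -3.94 ± 0.21, limma adjusted p = 4.79e-07). For both genes hippocampus replicate 1 was the highest library.

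Bhlhe22, a repressor in excitatory neurons, had 4.57, 1.61, 0.847 and 0.961 FPKM in hypothalamus and 30.6, 30.6, 25.6 and 27.4 in hippocampus (log2 difference -3.76 ± 0.31, limma adjusted p = 7.23e-06). Neurod1, of newborn granule cells, had 2.1, 0.618, 0.513 and 0.888 FPKM against 8.22, 12.1, 10.5 and 14.2 (log2 difference -2.90 ± 0.24, limma adjusted p = 6.9e-06). Tbr1, a factor of cortical projection neurons, had 3.45, 0.648, 1.5 and 5.54 FPKM against 19.8, 13.1, 7.83 and 9.97 (log2 difference -2.24 ± 0.42, limma adjusted p = 0.00121). Every hippocampus value of these 3 genes was above every hypothalamus value. Nr2f2, also known as Coup-TFII, was the 1 member called higher, with 33.9, 36.4, 44 and 52.1 FPKM in hypothalamus and 13.8, 7.68, 7.61 and 10.9 in hippocampus (log2 difference 1.75 ± 0.21, limma adjusted p = 6.9e-05). Neurod6 and Prox1 have 2 loci in the hippocampus table and were outside the test. Summed over loci, Neurod6, of pyramidal cells, had 0.831, 2.62, 0.296 and 0.476 FPKM in hypothalamus and 40.1, 80.7, 68.1 and 70.6 in hippocampus. Prox1, of dentate granule cells, had 4.75, 3.81, 3.65 and 3.88 FPKM against 11.9, 16.5, 11 and 12.9 when summed in the same way.

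**Figure D3:**
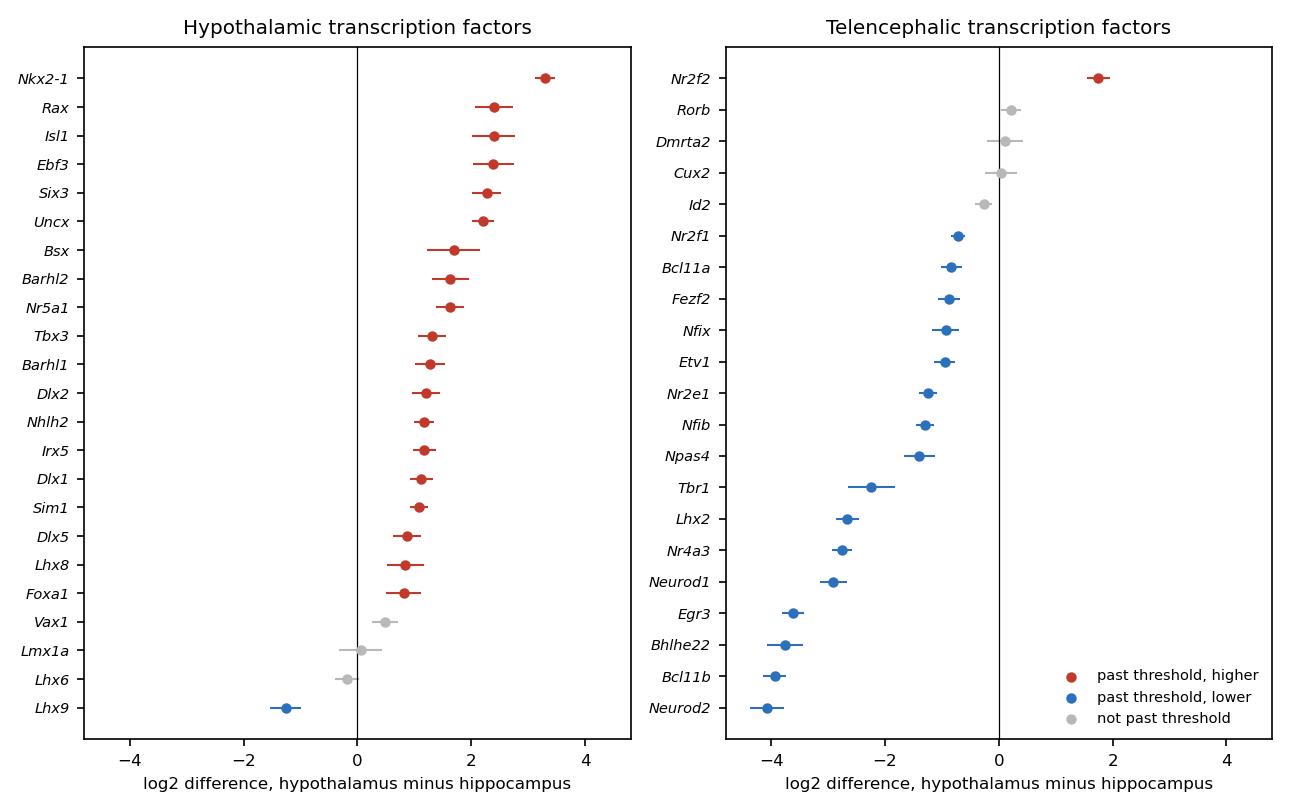
Log2 difference (hypothalamus minus hippocampus, with SE bars) of 23 hypothalamic and 21 telencephalic transcription factors; red points passed the threshold as higher in hypothalamus, blue points as lower, grey points did not pass. Another 4 hypothalamic factors, Otp and Hmx3 among them, are listed at 0 in all hippocampus libraries and are not drawn. The hypothalamic set lies mostly to the right of 0 with Nkx2-1 at the top, and the telencephalic set mostly to the left, with Nr2f2 as the exception.

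Genes that mark hippocampal fields or are abundant in their principal cells were lower in hypothalamus, with a few exceptions. Of 46 genes listed, 25 were tested. The calls were 19 lower, 18 of them by at least 2-fold, and 4 higher, beside 29.3% and 27.7% of all symbols. The median log2 difference was -2.01. Grp, one of the peptide genes above, is also on this list. Itpka, a kinase of inositol trisphosphate found in dendritic spines, had 4.17, 1.04, 1.45 and 1.04 FPKM in hypothalamus and 162, 226, 195 and 203 in hippocampus (log2 difference -6.59 ± 0.27, limma adjusted p = 1.33e-07). Slc30a3, which loads zinc into synaptic vesicles, had 8.96, 3.54, 1.98 and 4.61 FPKM against 108, 90.2, 68.3 and 73.7 (log2 difference -4.31 ± 0.33, limma adjusted p = 4.08e-06). Ptk2b, a tyrosine kinase activated by calcium, had 14.7, 16.1, 17.6 and 15.8 FPKM against 119, 192, 164 and 128 (log2 difference -3.43 ± 0.15, limma adjusted p = 2.09e-07). All 4 hippocampus libraries stood many times above all hypothalamus libraries for these genes. Rasgrp1, an activator of Ras, had 14.5, 8.65, 11.5 and 10.3 FPKM against 79.8, 107, 103 and 87.1 (log2 difference -3.24 ± 0.16, limma adjusted p = 3.09e-07). Wfs1, a marker of field CA1, had 20.6, 19.4, 20 and 17.4 FPKM against 124, 147, 76.3 and 138, with hippocampus replicate 3 the lowest (log2 difference -2.85 ± 0.20, limma adjusted p = 3e-06). Camk2a, the kinase abundant at excitatory synapses, has 2 loci in each table; summed, it had 110.5, 159, 147 and 149.6 FPKM in hypothalamus and 1519.8, 1758, 1693 and 1194 in hippocampus.

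Nrgn, which binds calmodulin in dendrites, Hpca, a calcium sensor, and Camkv, a kinase-like protein of synapses, had log2 differences of -2.01 ± 0.17, -2.43 ± 0.17 and -2.80 ± 0.17. The genes called higher in hypothalamus included Pcp4, Amigo2 and Ociad2, and the call of Ociad2 was lost with equal FPKM sums (log2 difference 0.40, limma adjusted p = 0.0617). Pcp4, which modulates calmodulin and marks field CA2, was high in hypothalamus at 577, 1067, 729 and 834 FPKM, against 72.8, 23.3, 51.5 and 21 in hippocampus (log2 difference 3.94 ± 0.37, limma adjusted p = 1.48e-05). Amigo2, an adhesion molecule also used as a CA2 marker, had 28.8, 26.4, 36.9 and 34.7 FPKM against 7.05, 10.3, 11 and 9.47 (log2 difference 1.44 ± 0.16, limma adjusted p = 4.35e-05).

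The vesicular transporters that set a neuron's transmitter differed in opposite directions. Slc17a7, which loads glutamate in cortex and hippocampus, has 2 loci in the hippocampus table. Summed over them it had 15.2, 0.711, 0.289 and 1.22 FPKM in hypothalamus and 674, 769, 682 and 482 in hippocampus (log2 difference -8.07 ± 0.66, limma adjusted p = 6.18e-06 in the fit with loci summed). Slc17a6, the glutamate transporter of diencephalic neurons, had 83.8, 63.1, 48.7 and 46.8 FPKM against 4.89, 4.83, 6.47 and 7.19 when its hypothalamus loci were summed (log2 difference 2.96 ± 0.20, limma adjusted p = 1.89e-06). Hypothalamus replicate 1 was the highest of its region for both. Gad2, a GABA-making enzyme, had 159, 129, 155 and 152 FPKM against 38.9, 49.7, 61.1 and 27.2 summed (log2 difference 1.56 ± 0.22, limma adjusted p = 0.000194). Gad1, the other such enzyme, had 90.1, 121, 147 and 176 FPKM in hypothalamus and 57.1, 69.9, 88.6 and 57.4 in hippocampus, where the lowest hypothalamus value exceeded the highest hippocampus value as deposited by a small margin and the normalized groups overlapped (log2 difference 0.61 ± 0.20, limma adjusted p = 0.0249). The call of Gad1 was lost in 6 of 24 alternatives: with equal FPKM sums (limma adjusted p = 0.0517), and without hypothalamus replicate 3 or 4 or hippocampus replicate 1, 2 or 4 (0.0512 to 0.0707). Slc32a1, which loads GABA, had 43.7, 79.5, 80.9 and 98.1 FPKM against 40.5, 31.9, 55.5 and 24.5 summed, and the groups overlapped (limma adjusted p = 0.0367).

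Of the glutamate synapse genes 27 were tested, 12 were called lower in hypothalamus and 6 higher, beside 29.3% and 27.7% of all symbols. The median of -0.23 turned to 0.06 with FPKM as deposited. Another 13 listed genes have several loci, and with loci summed 22 of 40 were lower and 9 higher, with a median of -0.78. Scaffold genes of the postsynaptic density were among those lower. Baiap2 had 6.84, 7.75, 6.76 and 6.9 FPKM in hypothalamus and 68.5, 69.5, 63.1 and 45.4 in hippocampus (log2 difference -3.17 ± 0.15, limma adjusted p = 3.09e-07). Homer1 had 5.16, 3.36, 3.56 and 3.39 FPKM against 23.9, 33, 30 and 30.7 (log2 difference -2.90 ± 0.14, limma adjusted p = 3.33e-07). Shank1 had 31.6, 64.1, 54.4 and 68.1 FPKM against 175, 233, 165 and 161 (log2 difference -2.14 ± 0.22). The regions did not overlap for these 3 scaffold genes. Of receptors, Gria3, an AMPA receptor subunit, had 13.9, 9.88, 8.84 and 7.04 FPKM against 39.1, 64.2, 48.9 and 51.2 (log2 difference -2.48 ± 0.20, limma adjusted p = 5.43e-06).

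Of 17 tested genes of the GABA synapse 6 were called higher and 6 lower, beside 27.7% and 29.3% of all symbols. The median was -0.07 and turned to 0.22 with FPKM as deposited. With equal FPKM sums 4 were called higher, and 4 to 5 when 1 library was left out. Gabrq and Gabre, the theta and epsilon subunits, were higher in hypothalamus. Gabrq had 16.5, 17.1, 18.1 and 13 FPKM against 0.252, 0.256, 0.662 and 0.333 (log2 difference 3.36 ± 0.16, limma adjusted p = 3.09e-07), and Gabre 5.77, 9.97, 10.8 and 10.5 against 0.334, 0.0504, 0.24 and 0.093 (log2 difference 2.84 ± 0.21, limma adjusted p = 3.98e-06). Gabrd, the delta subunit of receptors outside synapses, was lower, with 1.71, 0.544, 0.763 and 0.837 FPKM in hypothalamus and 17.3, 13.3, 13.5 and 13.6 in hippocampus (log2 difference -3.28 ± 0.19, limma adjusted p = 8.37e-07). The regions did not overlap for these 3 subunits. However, Gabrq and Gabre passed the limit of 1 FPKM through the hypothalamus alone and Gabrd through the hippocampus alone, which fixes their direction. Of the 14 members at the limit in both regions 4 were called higher and 5 lower. Slc6a11, a GABA transporter of astrocytes, had 173, 305, 231 and 272 FPKM against 37, 43.6, 56.1 and 24.8 (log2 difference 2.26 ± 0.24, limma adjusted p = 3.36e-05). Nlgn2, an adhesion molecule of inhibitory synapses, had 0.584, 2.59, 3.56 and 3.09 FPKM against 60.6, 53.3, 53.3 and 31.9 (log2 difference -4.22 ± 0.34, limma adjusted p = 5.9e-06). It was among the 15 largest negative differences named from the symbols tested. It has Spem1, which 1 table alone holds, within 5 kb.

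Of the genes of monoamine and acetylcholine signalling 37 were tested, 11 were called higher and 9 lower, near the shares of all symbols (27.7% higher and 29.3% lower). The median was 0.37, and 0.62 with FPKM as deposited, but 0.03 with 1 FPKM required in both regions, and 0.13, 0.14 and 0.14 without hippocampus replicate 2, 1 or 4. Among those called higher were genes that make or load monoamines. Th, the rate-limiting enzyme of dopamine synthesis, had 17.3, 86, 18.7 and 24.2 FPKM in hypothalamus and 0.943, 0.789, 0.345 and 0.814 in hippocampus (log2 difference 3.81 ± 0.41, limma adjusted p = 3.68e-05). Hdc, which makes histamine in the tuberomammillary nucleus, had 9.39, 44.9, 23.4 and 22.6 FPKM against 0.17, 0.165, 0.42 and 0.699 (log2 difference 3.79 ± 0.37, limma adjusted p = 1.94e-05). Slc18a2, the vesicular monoamine transporter, had 7.28, 22.1, 10.6 and 10.4 FPKM against 0.107, 0.418, 1.45 and 0.64 (log2 difference 2.71 ± 0.33, limma adjusted p = 8.62e-05). Hypothalamus replicate 2 was the highest library for these 3 genes. All 3 passed the limit of 1 FPKM through the hypothalamus alone, which fixes their direction. Of the 28 members at the limit in both regions 7 were called higher and 7 lower. Of receptors, Adra1d, an alpha-1 adrenergic receptor, was lower in hypothalamus, with 0.319, 0.907, 0.488 and 0.893 FPKM against 21.2, 25.4, 23.5 and 14.1 (log2 difference -3.99 ± 0.20, limma adjusted p = 3.58e-07). It passed the limit through the hippocampus alone, which fixes its direction. Htr1a, a serotonin receptor that inhibits pyramidal cells, had 4.64, 5.6, 5.21 and 5.99 FPKM against 23.7, 25.1, 20.7 and 17.6 (log2 difference -2.06 ± 0.15, limma adjusted p = 3.34e-06). Drd1 and Drd2, the main dopamine receptors, had log2 differences of -1.07 ± 0.16 and 1.56 ± 0.29.

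Of the receptors for neuropeptides and hormones 45 were tested, 19 were called higher and 11 lower, beside 27.7% and 29.3% of all symbols. The median was 0.31, and 0.58 with FPKM as deposited. Of the 45, 11 passed the limit on low values through the hypothalamus alone and 2 through the hippocampus alone. Of the 32 at the limit in both regions 8 were higher and 9 lower. Calcr, the calcitonin receptor, which with Ramp1 forms an amylin receptor, had 51.6, 41.7, 57.5 and 43.8 FPKM in hypothalamus and 0.47, 0.193, 0.507 and 0.2 in hippocampus (log2 difference 4.90 ± 0.17, limma adjusted p = 3.24e-08). Ramp1 had 43.2, 49, 53.1 and 53.4 FPKM against 11.3, 6.51, 7.21 and 5.44 (log2 difference 2.36 ± 0.20, limma adjusted p = 8.19e-06). Cckar, a cholecystokinin receptor, had 5.52, 6.2, 6.53 and 6.89 FPKM against 0, 0, 0.203 and 0.144 (log2 difference 2.56 ± 0.16, limma adjusted p = 1.32e-06). The regions were fully apart for all 3, but Calcr and Cckar passed the limit through the hypothalamus alone, which fixes their direction. Kiss1r, the receptor for the product of Kiss1, had a log2 difference of 1.98 ± 0.22, and the orexin receptor Hcrtr1 one of 1.48 ± 0.17. On the lower side, Sstr4, a somatostatin receptor, had 1.78, 1.63, 2.14 and 1.34 FPKM in hypothalamus and 7.53, 10.8, 11 and 6.77 in hippocampus (log2 difference -2.12 ± 0.17, limma adjusted p = 7.29e-06). Mchr1, the receptor for the peptide of Pmch, was lower in hypothalamus too, with a log2 difference of -0.88 ± 0.20. Mc4r, the melanocortin receptor of appetite control, had 2.23, 3.49, 2.87 and 2.82 FPKM against 0.864, 1.32, 2.17 and 0.991 and was not called (log2 difference 0.45 ± 0.21, limma adjusted p = 0.094). It was called higher with FPKM as deposited (log2 difference 0.74, limma adjusted p = 0.00651), median centring (0.56 and 0.0265), equal FPKM sums (0.49 and 0.0491) and without hippocampus replicate 3 (0.61 and 0.0236). The glucocorticoid receptor gene Nr3c1 had 19.9, 11.8, 13.4 and 11.7 FPKM against 10.5, 12.1, 12.6 and 13.5 and was not called (log2 difference 0.00 ± 0.16, limma adjusted p = 0.984). Nr3c2, the mineralocorticoid receptor, summed over its loci, had 9.46, 10.6, 9.78 and 10.5 FPKM against 26, 40.4, 36.7 and 34.1 (log2 difference -1.81 ± 0.14, limma adjusted p = 3.53e-06). Lepr, the leptin receptor, was not among the symbols of both tables and was not analysed here.

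Granins and the enzymes that cut and finish peptide precursors were called on both sides. With 14 tested, 6 were higher and 4 lower, beside 27.7% and 29.3% of all symbols. The median was -0.08, and 0.32 with FPKM as deposited. Resp18, a protein of secretory granules, had 1116, 1166, 1255 and 1604 FPKM in hypothalamus and 62.9, 31, 57 and 46.9 in hippocampus (log2 difference 4.30 ± 0.22, limma adjusted p = 4.21e-07). Pam, which amidates peptides such as oxytocin, had 178, 158, 162 and 155 FPKM against 60, 70.6, 50.5 and 68.6 (log2 difference 1.03 ± 0.15, limma adjusted p = 0.000215). Cpe, a carboxypeptidase that trims precursors, was lower in hypothalamus at 818, 755, 671 and 611 FPKM against 1080.4, 1499, 1605 and 1653 (log2 difference -1.58 ± 0.20, limma adjusted p = 9.35e-05). No sample of one region crossed into the other for these 3 genes.

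Of 16 tested imprinted genes, which are expressed from one parent's copy, 11 were called higher in hypothalamus and 1 lower, with a median of 0.73. Of all symbols 27.7% were higher and 29.3% lower. The count of higher genes was 8 with equal FPKM sums and 8 without hypothalamus replicate 3. Asb4 and Calcr passed the limit of 1 FPKM through the hypothalamus alone, which fixes their direction. Of the 14 members at the limit in both regions 9 were called higher and 1 lower. Dlk1, a Notch-like membrane protein, had 164, 146, 238 and 182 FPKM in hypothalamus and 4.19, 2.92, 9.8 and 2.17 in hippocampus (log2 difference 4.81 ± 0.33, limma adjusted p = 2.36e-06). Asb4, a ubiquitin ligase adaptor of arcuate neurons, had 25.3, 20.1, 32.6 and 22.1 FPKM against 0.299, 0.033, 0.27 and 0.0477 (log2 difference 4.22 ± 0.18, limma adjusted p = 1.85e-07). Ndn, the gene of necdin, had 555, 600.5, 627 and 646 FPKM against 138, 123, 139.8 and 114 (log2 difference 1.70 ± 0.12, limma adjusted p = 3.15e-06). Calcr is also on this list. Snrpn, a splicing protein, was the 1 member called lower, with 16.9, 10.7, 8.29 and 7.07 FPKM against 4.07, 112, 142 and 129; hippocampus replicate 1 fell below all hypothalamus libraries, the groups overlapped, and the call was lost in 7 of the 24 alternatives (log2 difference -2.63 ± 0.94, limma adjusted p = 0.0346, up to 0.0907).

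Voltage-gated channels were called lower in hypothalamus for 18 of 34 tested and higher for 7, beside 29.3% and 27.7% of all symbols. Their median was -0.76. Kcnh3, a potassium channel of forebrain neurons, had 3.49, 0.681, 0.751 and 0.475 FPKM in hypothalamus and 33.1, 23.6, 19.9 and 18.2 in hippocampus (log2 difference -3.80 ± 0.33, limma adjusted p = 1.05e-05). Cacna2d3, an auxiliary subunit of calcium channels, had 17.7, 13.3, 11.9 and 9.25 FPKM against 86.8, 104, 70.4 and 68.9 (log2 difference -2.85 ± 0.20, limma adjusted p = 2.33e-06). Kcnab1, an auxiliary subunit of potassium channels, had 12.5, 7.24, 6.13 and 6.39 FPKM against 49.7, 60.3, 46.4 and 44.4 (log2 difference -2.76 ± 0.20, limma adjusted p = 3.05e-06). All hippocampus values of these 3 channel genes were above all hypothalamus values. Of the pacemaker channels, Hcn3 had 18.9, 22, 16.3 and 22.5 FPKM against 5.94, 3.24, 5.9 and 2.75 (log2 difference 1.76 ± 0.22) and Hcn4 a log2 difference of 1.23 ± 0.18, both higher in hypothalamus.

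Immediate early genes, which neurons switch on within minutes of activity, were called lower in hypothalamus for 13 of 20 tested and higher for 3. The shares of all symbols were 29.3% lower and 27.7% higher. The median of the list was -1.48. Through the hippocampus alone 2 of the 20 passed the limit of 1 FPKM, which fixes their direction. At the limit in both regions 11 of 18 were called lower and 3 higher. Egr3 and Nr4a3 are also on the list of telencephalic factors. Egr3, a zinc finger factor, had 2.03, 1.2, 1.39 and 1.56 FPKM in hypothalamus and 27.3, 33.8, 20.6 and 19.1 in hippocampus (log2 difference -3.62 ± 0.19, limma adjusted p = 4.79e-07). Nr4a3 had 3.26, 4.64, 3.22 and 3.36 FPKM against 20.1, 34.6, 23.9 and 23.6 (log2 difference -2.76 ± 0.18, limma adjusted p = 1.89e-06), and Nr4a1, of the same nuclear receptor family, 10.3, 16.8, 10.5 and 10.7 against 80.7, 63, 39.3 and 46 (log2 difference -2.35 ± 0.25, limma adjusted p = 3.29e-05). Dusp5 and Dusp6, phosphatases that switch off MAP kinases, had log2 differences of -2.46 ± 0.17 and -2.41 ± 0.16. Fos went the other way, with 29.3, 36.5, 42.4 and 36.2 FPKM in hypothalamus and 20, 16, 9.87 and 16.4 in hippocampus (log2 difference 0.98 ± 0.21, limma adjusted p = 0.00269). Jund and Nptx2 were the other members called higher. Their groups overlapped, and the call of Nptx2 was lost in 9 of the 24 alternatives.

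Glial markers differed gene by gene, and their counts stand beside 27.7% higher and 29.3% lower of all symbols. Of 15 astrocyte genes tested 7 were called higher and 4 lower (median 0.22, and 0.53 with FPKM as deposited). Agt, the gene of angiotensinogen, which astrocytes of the diencephalon make, had 833, 1131, 897 and 865 FPKM in hypothalamus and 75.4, 64.5, 71.2 and 48.3 in hippocampus (log2 difference 3.38 ± 0.16, limma adjusted p = 3.09e-07). Itih3 had 511, 456, 435 and 360.2 FPKM against 105, 91.4, 89.3 and 65.6 (log2 difference 1.88 ± 0.19, limma adjusted p = 2.43e-05). Gfap, the astrocyte filament protein, had 371, 376, 309 and 568 FPKM against 236, 356, 255 and 260.5 and was not called (log2 difference -0.02 ± 0.18, limma adjusted p = 0.935), while with FPKM as deposited it was called higher (log2 difference 0.53, limma adjusted p = 0.0444). Glul, glutamine synthetase, had nearly equal deposited values, 811, 788, 762 and 697 FPKM in hypothalamus and 800.2, 755, 789 and 729 in hippocampus, and its call as lower (-0.56 ± 0.14, limma adjusted p = 0.00618) was lost with FPKM as deposited (limma adjusted p = 0.956). Of 19 genes of oligodendrocytes and their precursors 6 were called higher and 0 lower. With the replicate block 4 were higher. With equal FPKM sums 2 were called lower, and 2 also without both replicate 1 libraries. Mbp, myelin basic protein, had 3525, 4741, 2753 and 4991 FPKM against 1150.3, 1091, 1955 and 1920.1, and the normalized groups overlapped (log2 difference 0.98 ± 0.29, limma adjusted p = 0.0154). Enpp6, of newly forming oligodendrocytes, had 5.66, 5.81, 5.21 and 7.63 FPKM against 1.28, 1.78, 1.29 and 1.12 (log2 difference 1.30 ± 0.17, limma adjusted p = 0.00013). Of 18 genes of microglia and macrophages 8 were called higher and 2 lower, though 5 were higher without hypothalamus replicate 4 or hippocampus replicate 2 or 3, and 1 was lower when any one of hypothalamus replicates 2 to 4 or hippocampus replicates 1 to 3 was left out. The lysosomal gene Laptm5 had 24.3, 25, 24.3 and 28.4 FPKM against 6.8, 6.11, 6.39 and 5.86 (log2 difference 1.65 ± 0.11, limma adjusted p = 2.25e-06), and Aif1 37.5, 26.2, 19.4 and 26 against 38.6, 42.7, 43.5 and 45.8 (log2 difference -0.89 ± 0.17, limma adjusted p = 0.00149).

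**Figure D4:**
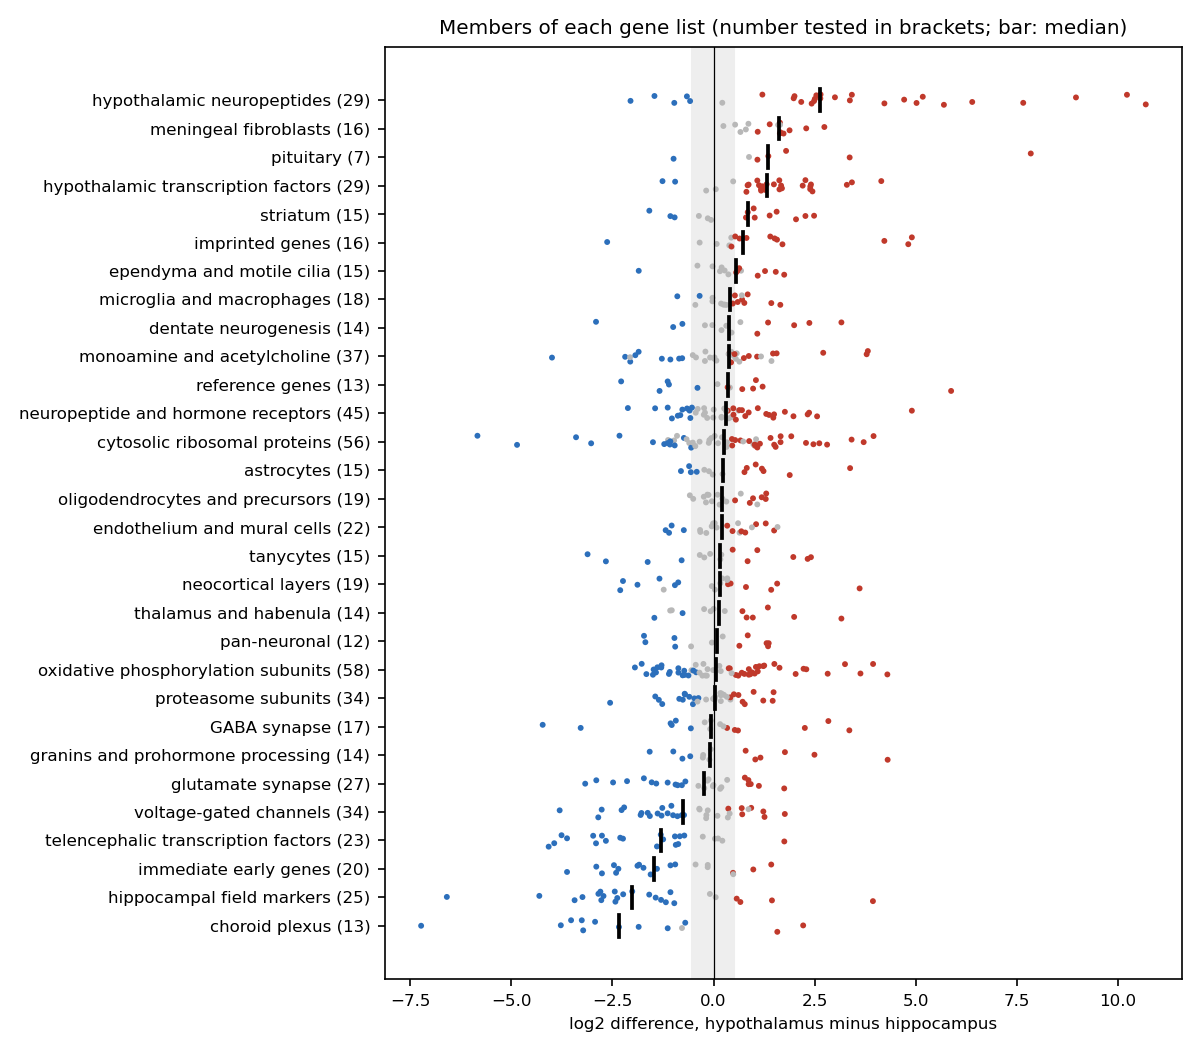
Log2 difference of every tested member of each list, with the number tested in brackets, a black bar at the list's median, red for members called higher in hypothalamus, blue for lower and grey for not called; members listed at 0 in one region are drawn at a value that depends on the 1 FPKM added; the pale band spans the lower to the upper quartile of all tested symbols. Medians run from -2.34 for choroid plexus to 2.64 for neuropeptides, and the ribosomal proteins spread from -5.84 to 3.96 around a median of 0.27.

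Markers of tissue that can be dissected along with either region differed by library. The choroid plexus, which makes cerebrospinal fluid, lies against the hippocampus in the lateral ventricle. Of its 13 tested markers 10 were called lower in hypothalamus and 2 higher, with a median of -2.34. Of all symbols 29.3% were lower and 27.7% higher. Of the 13, 4 passed the limit of 1 FPKM through the hippocampus alone, F5 among them, and 1 through the hypothalamus alone, which fixes their direction. Of the 8 at the limit in both regions 6 were called lower and 1 higher (median -1.49). The summed level of the list was 1216 to 7677 FPKM in hippocampus, highest in replicate 1 and lowest in replicate 3, and 77.6 to 210.3 in hypothalamus. Ttr, the thyroxine carrier of choroid plexus, had 13.6, 12.3, 10.7 and 79.1 FPKM in hypothalamus and 7409, 2899.7, 1159 and 2440.2 in hippocampus (log2 difference -7.23 ± 0.62, limma adjusted p = 8.74e-06). This was the largest negative difference among the symbols tested, which have 1 locus in each table. Kl, the gene of klotho, had 1.19, 1.17, 1.81 and 1.28 FPKM against 40, 25, 6.91 and 26.3 (log2 difference -3.52 ± 0.42, limma adjusted p = 7.29e-05). F5, a coagulation factor, had 0.526, 0.232, 0.545 and 0.275 FPKM against 24.7, 20.2, 4.55 and 20 (log2 difference -3.77 ± 0.41, limma adjusted p = 3.86e-05). Both, like Ttr, were lowest in replicate 3 within hippocampus. Prlr, the prolactin receptor, is on this list and on that of receptors, and its log2 difference of -1.13 ± 0.20 has these values beside it.

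Meningeal fibroblasts, of the membranes around the brain, had 16 tested markers (median 1.62). In hypothalamus 9 were called higher and 0 lower, beside 27.7% and 29.3% of all symbols. The count of those called higher rested on single libraries. It was 14 without hippocampus replicate 4, 6 without hypothalamus replicate 4 or hippocampus replicate 2 or 3, and 7 to 10 without any other library. Their summed level was 503.8 to 934 FPKM in hypothalamus, and in hippocampus it was 479.6 and 515.9 in replicates 1 and 4 but 128.9 and 79.1 in replicates 2 and 3. Mgp, a matrix protein, had 196, 136, 315 and 259.8 FPKM in hypothalamus and 79.9, 8.77, 9.92 and 48.6 in hippocampus (log2 difference 2.74 ± 0.65, limma adjusted p = 0.00503). Slc6a13, a transporter of leptomeninges, had 26.2, 22.4, 35.3 and 41.8 FPKM against 6.8, 1.53, 1.44 and 15.3 (log2 difference 2.29 ± 0.51, limma adjusted p = 0.0036). Col1a1 and Dcn, a collagen and a collagen-binding proteoglycan, were not called, with log2 differences of 0.80 ± 0.59 and 0.67 ± 0.49. Without hippocampus replicate 4, Dcn was called higher (log2 difference 1.23, limma adjusted p = 0.004). Weighting libraries by their spread called both, at 1.67 for Col1a1 and 1.25 for Dcn (limma adjusted p = 0.00522 and 0.00959). Col1a1 had 23.4, 34.2, 46.9 and 67.9 FPKM against 33.6, 7.35, 8.67 and 54.2. Vim, a filament of fibroblasts, tanycytes and other cells, had 378, 233, 354 and 413 FPKM against 78.6, 23.5, 34.4 and 239, and its groups overlapped (log2 difference 1.97 ± 0.63, limma adjusted p = 0.021). Within hippocampus, Vim, Vtn of pericytes and Nr2f2 were highest in replicates 1 and 4, as the meningeal sum was, and the part of meningeal tissue in these differences was not tested. The call of Vim was lost without hippocampus replicate 2 (limma adjusted p = 0.0558), without replicate 3 (0.0589) and without both replicate 1 libraries (0.0645).

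The pituitary hangs from the hypothalamus by its stalk. Of 7 tested pituitary genes 5 were called higher in hypothalamus and 1 lower, beside 27.7% and 29.3% of all symbols. All but 1 of the 7 passed the limit through the hypothalamus alone, and 6 more were below the limit on low values. Among these was Prl, the gene of prolactin, at a mean of 0.0859 FPKM in hypothalamus and listed at 0 in hippocampus. The summed level was 67.6 FPKM in hypothalamus replicate 2, 352.8 to 832.4 in the other three and 5.9 to 9.5 in hippocampus. Cga, the shared subunit of the glycoprotein hormones, which the pars tuberalis on the stalk makes, had 327, 51.8, 762 and 383 FPKM in hypothalamus and was listed at 0 in all hippocampus libraries (limma adjusted p = 5.99e-06). Tshb, the other subunit of thyrotropin, had 6.64, 1.15, 53.8 and 28.1 FPKM against 0, 0, 0.0727 and 0.308 (log2 difference 3.37 ± 0.82, limma adjusted p = 0.00556). Both were lowest in hypothalamus replicate 2, which was also the lowest of its region for Pomc. Pomc is made in pituitary cells as well as in arcuate neurons, and the part of pituitary tissue in its level was not tested. Tbx19, a factor of pituitary Pomc cells, had 2.9, 3.06, 4.53 and 5.31 FPKM against 0.788, 0.735, 0.607 and 1.3 (log2 difference 1.09 ± 0.18, limma adjusted p = 0.000654).

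**Figure D5:**
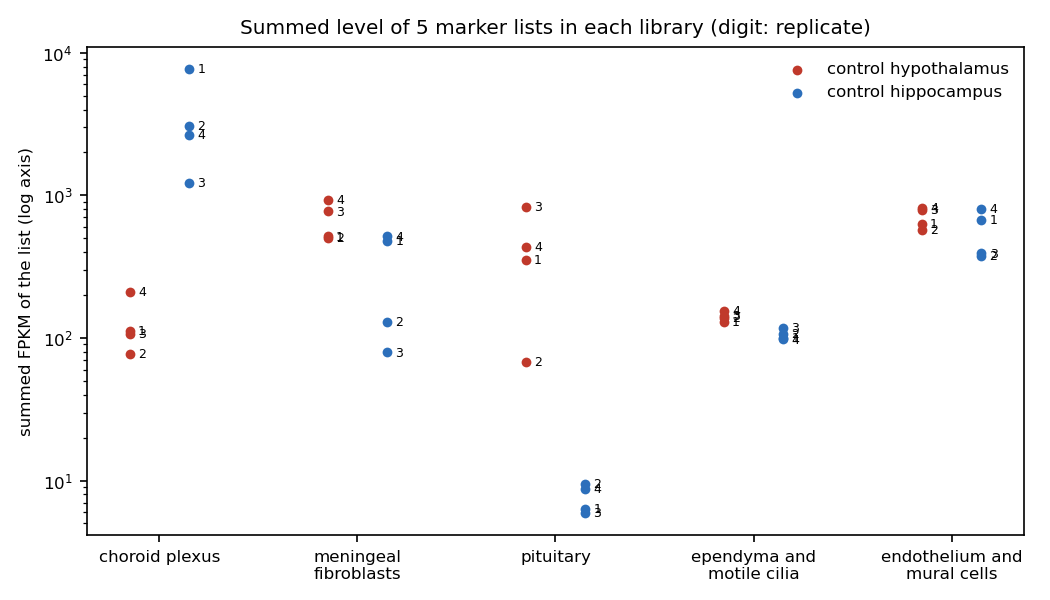
Summed FPKM (log axis) of the genes of 5 marker lists in each control library, with hypothalamus in red, hippocampus in blue and the replicate number beside each point. Choroid plexus sums are 1216 to 7677 in hippocampus and at most 210.3 in hypothalamus, pituitary sums are under 10 in every hippocampus library, and meningeal sums of hippocampus replicates 1 and 4 reach those of hypothalamus.

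Genes of neighbouring brain regions were counted in the same way, beside 27.7% higher and 29.3% lower of all symbols. Of 14 tested genes of thalamus and habenula 6 were called higher and 2 lower, of 15 striatal genes 9 higher and 3 lower, and of 19 genes of neocortical layers 6 higher and 6 lower. Calb2, the gene of calretinin, had 77.6, 232, 111 and 140.1 FPKM in hypothalamus and 8.62, 7.52, 27 and 7.85 in hippocampus (log2 difference 3.16 ± 0.40, limma adjusted p = 0.000102). Tac2, which encodes neurokinin B, also a peptide of arcuate neurons, had 115, 131, 154 and 227 FPKM against 29, 35.6, 28 and 27.9 (log2 difference 1.99 ± 0.18, limma adjusted p = 1.25e-05). Nxph4, of deep cortical layers and other neurons, had 20.4, 49.2, 20.7 and 35.2 FPKM against 1.71, 1.38, 0.965 and 0.325 (log2 difference 3.61 ± 0.31, limma adjusted p = 9.54e-06). Several of these genes are expressed by hypothalamic neurons too, so the counts do not measure how much neighbouring tissue a sample holds. Of the Hox genes, which mark hindbrain and spinal cord, 15 had 1 locus in each table and none of these reached 1 FPKM.

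Ependymal and vascular markers were mixed, and the counts given here stand beside 27.7% higher and 29.3% lower of all symbols. Of 15 tanycyte genes 6 were called higher and 4 lower, and of 14 genes of dentate neurogenesis 5 higher and 3 lower. Of 15 genes of ependyma and motile cilia 7 were called higher and 1 lower: Rsph9, of the radial spoke, had 32.1, 29.6, 27.2 and 30.2 FPKM against 8.37, 7.13, 7.11 and 10.2 (log2 difference 1.54 ± 0.13), and Foxj1, the master factor of motile cilia, was the member lower in hypothalamus with 9.91, 16.9, 14.8 and 26 FPKM against 51.7, 56, 55.3 and 43.7 (log2 difference -1.85 ± 0.24, limma adjusted p = 0.000126). Of 22 genes of endothelium and mural cells 7 were called higher and 4 lower, beside 27.7% and 29.3% of all symbols. Flt1 and Esam, of endothelial cells, had log2 differences of -1.03 ± 0.12 and -1.18 ± 0.16, and Vtn, of pericytes, had 63.6, 77, 76.6 and 109 FPKM in hypothalamus and 33.3, 10.8, 15.3 and 49.1 in hippocampus (limma adjusted p = 0.0105). Of pan-neuronal genes 5 were higher and 4 lower of 12 tested, but 13 of the 25 listed have several loci, and with loci summed 6 of 25 were higher and 12 lower, with a median of -0.65 in place of 0.09. Among those tested, Uchl1, a ubiquitin hydrolase of neurons, had 1983, 2853, 2383 and 2964 FPKM against 659, 634, 804 and 521 (log2 difference 1.36 ± 0.18, limma adjusted p = 0.000159), and Stx1a, of the vesicle release machinery, 19.1, 28, 26.6 and 25 against 81.8, 88.6, 62.8 and 46.6 (log2 difference -1.68 ± 0.21, limma adjusted p = 9.91e-05).

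The 15 largest differences of each direction also held genes that are on none of the lists above. In the higher direction these were Plac8, S100a11 and Gtf2a2. Plac8 had 1167, 1257, 292 and 3894 FPKM in hypothalamus and 2.38, 1.61, 0.935 and 2.91 in hippocampus (log2 difference 8.25 ± 0.57, limma adjusted p = 2.47e-06), with a wide spread between hypothalamus libraries. S100a11, a calcium-binding protein, had 94.7, 98, 104 and 156 FPKM against 1.27, 0.551, 0.54 and 2.93 (log2 difference 5.33 ± 0.25, limma adjusted p = 2.61e-07). Gtf2a2, a general transcription factor that every cell uses, had 108, 105, 109.6 and 181 FPKM against 2.68, 2.24, 2.57 and 2.54 (log2 difference 4.82 ± 0.16, limma adjusted p = 2.81e-08).

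In the lower direction these included Ddn and Mgarp. Ddn, the gene of dendrin, a protein of dendrites whose RNA is carried there, had 46.3, 3.08, 5.28 and 3.96 FPKM in hypothalamus and 372, 276, 257 and 238 in hippocampus, with hypothalamus replicate 1 the highest of its region (log2 difference -5.39 ± 0.65, limma adjusted p = 7.63e-05). Rpl22l1, a ribosomal protein of the large subunit and on the ribosomal list, had 6.35, 2.85, 5.55 and 3.54 FPKM against 166, 252, 213 and 331 (log2 difference -5.84 ± 0.26). Mgarp, of mitochondria, had 0.368, 0.19, 0.0428 and 0.44 FPKM against 40.8, 60, 61.3 and 80.5 (log2 difference -5.83 ± 0.20), and Sec61g, of the protein channel that every cell uses, 0.198, 0.197, 0 and 0.614 against 37.7, 20.4, 26.6 and 32.4 (log2 difference -4.78 ± 0.21). Spag5, Cilp2, Lyzl4, Slc10a5 and Ntan1 had log2 differences of -5.04 ± 0.17, -4.74 ± 0.20, -4.70 ± 0.13, -4.54 ± 0.23 and -4.40 ± 0.18, and none of them is on a list of markers used here. Lyzl4, for example, had 0.136, 0.252, 0.112 and 0 FPKM in hypothalamus and 27.6, 26, 21.8 and 24.7 in hippocampus. Mgarp, Sec61g and Lyzl4 passed the limit of 1 FPKM through the hippocampus alone, which fixes their direction. The size of their log2 differences depends on the 1 FPKM added. Across the alternatives these reached -8.12, -7.13 and -7.39. Some of the widest gaps lay beside genes that the tables treat unevenly: Slc10a5 has within 5 kb, in the order of genes of RefSeq GRCr8, the gene Impa1, which has 2 loci in the hippocampus table and 1 in that of hypothalamus, and Gapdh has Iffo1, split in the same way. Such a neighbour was found for 726 of the tested symbols (8.06%) and for 181 of those called with at least a 2-fold difference (8.74%). Without these symbols 2294 were called higher and 2426 lower of 8285.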

How the data were processed

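RNA of control hypothalamus and control hippocampus was sequenced after poly-A selection, per the labels' protocols. The authors deposited FPKM values per locus, 1 table for each region. The submitters' processing notes name TopHat, Bowtie, TopHat2, Bowtie2, Cufflinks, Cuffdiff and build rn5, without versions or order. Read depth is unknown.

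The tables were joined by symbol, keeping symbols with 1 locus in each and a mean of at least 1 FPKM in one region. Values were log2(FPKM + 1), quantile-normalized over the 8 libraries, and tested with limma 3.58.1 in R 4.3.3 (region only, trended prior variance). P-values were adjusted by the Benjamini-Hochberg method over 9011 symbols. The 7 fructose columns were not used. The test was checked on simulated data.

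The comparison and gene lists were chosen with earlier results of these data known. Genes named were the 15 largest differences without overlap in each direction, up to 6 called members and up to 3 members against the sign (or uncalled) of each list, and a set of known regional genes. Gal, Ghrh, Gnrh1, Kiss1, Vgf, Sst, Nmb, Prok2, Nrgn, Hpca, Camkv, Hcrtr1, Mchr1, Ociad2, Rpl29, Rps13 and Rps14 were added after their values were seen. Alternatives changed scaling, pseudocount, filter, loci, status, variance model, weights, block and libraries. Promoters and gene neighbours came from RefSeq GRCr8, in which 8130 of the symbols were found. Some genes that the rule would name are not reported here.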

Additional observations from a re-analysis of the deposited data

Results flagged for a closer look

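In 23 of 279 groups of 4 libraries, 1 group for each named gene and region, 1 library stood apart from the others on the quantile-normalized scale: its gap to the nearest library, divided by the range of the group, was over Dixon's critical value for 4 values. Chance gives about 1 in 20 such groups. The deposited FPKM of the library that stood apart are given here.

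Hippocampus replicate 1 stood apart for 7 genes. It was the highest for Bcl11b at 39.1, Gabrd at 17.3, Jund at 105 and Oxt at 0.176, and the lowest for Snrpn at 4.07, Esam at 36.8 and Gal at 1.54. Hypothalamus replicate 1 stood apart for 5 genes. It was the highest for Ddn at 46.3, Homer1 at 5.16 and Kcnh3 at 3.49, genes that are high in hippocampus, and the lowest for Gabre at 5.77 and Hcrtr1 at 4.32, genes that are high in hypothalamus.

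Hippocampus replicate 3 was the highest for Calb2 at 27 and Ghrh at 0.327, both high in hypothalamus, and the lowest for Wfs1 at 76.3 and F5 at 4.55. Hippocampus replicate 4 was the highest for Rax at 0.328 and the lowest for Foxj1 at 43.7. Crh stood apart in hippocampus replicate 2 at 0.856, the highest after normalization. Hypothalamus replicate 2 was the highest for Nr4a1 at 16.8 and Nr4a3 at 4.64, immediate early genes of the same family. Hypothalamus replicate 4 was the highest for Laptm5 at 28.4 and for Ttr at 79.1, the library that also had the highest choroid plexus sum of its region.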

How the results depend on the processing

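Of the 134 named genes that passed the threshold, 126 kept their call and direction in all of the 24 alternatives that could hold them, 2 of them chosen after seeing the data (a term for replicate 1, and leaving out symbols with an uneven neighbour). With FPKM as deposited, 659 symbols were at least 2-fold lower in place of 1029, and the list medians were 2.85 for neuropeptides, 1.602 and -1.085 for hypothalamic and telencephalic transcription factors and -1.51 for hippocampal markers. A pseudocount of 0.1 gave 4.443 for neuropeptides and 2.925 for hypothalamic factors, and 0.5 gave 3.169 and 1.892, as low values weigh more there. A limit of 5 FPKM gave 2.161 for hypothalamic factors, summing loci -1.676 for telencephalic factors, and no limit -1.43 for hippocampal markers. Leaving out 1 library at a time gave 2158 to 2612 symbols higher, 2298 to 2843 lower, and a neuropeptide median of 2.478 to 2.876. Gfap, not called, turned to 0.5322 as deposited, 0.3523 with median centring, 0.1297 with equal sums, 0.01197 with 1 FPKM in both regions, 0.2489 with loci summed, and -0.1525 to 0.09976 without 1 library (0.02489 and 0.06624 without hypothalamus replicates 2 and 3). Nr3c1, not called, turned to -0.1923 with equal sums, -0.0981 with array weights, -0.2025 without both replicate 1 libraries, and -0.149 to 0.07956 without 1 library (-0.04783 without hippocampus replicate 1). The cause was not tested. Correlations of deviations between same-numbered samples (-0.184, 0.217, -0.0512 and 0.0507, and 0.271, -0.039 and 0.158 for numbers 2 to 4 without replicate 1) were not all over 0.1, so the numbers were not used as pairs; these values do not settle if a rat gave both tissues, and not every sample correlated best with its own number. With the replicate block 2289 symbols were higher and 2370 lower. With 1 FPKM required in both regions a single pituitary gene was left, at -0.96. Without counts, the precision of low values cannot be given.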
